A study of Mus musculus with 13 samples.

Results

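Sciatic nerve of db/db mice was arrayed under sample numbers that fall into 2 runs, 110 to 112 and 409 to 411, and the arrays of these number series were compared with each other inside the single genotype. The members were chosen by the sample number in each title, which took 6 of the 13 arrays of the study, 3 in each series. What the numbers mark is not stated in the labels, and no label gives an extraction, labelling or scan batch. All 6 nerves came from BKS mice that were homozygous for the db mutation of the leptin receptor gene Lepr and 24 weeks old, with no treatment named. The other 7 arrays held nerve of BKS db/+ mice of the same age, numbered 101, 103, 104, 105, 106, 404 and 407, and served here to look at the same pair of number series in other samples. The labels call each array a mouse sample but do not say that each is a separate animal, and they do not give sex, so the p-values measure the spread between these arrays. With 3 arrays in each series, the number of arrays limits the precision.

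Homozygous db mice become obese and diabetic, and their nerve is used as a model of the neuropathy of type 2 diabetes. Sciatic nerve as dissected holds the axons of neurons whose cell bodies lie elsewhere, the Schwann cells that wrap them, fibroblasts, endothelium, immune cells and the fat and connective tissue of the sheath. Mitotic transcripts mark dividing cells of any of these types, immunoglobulin transcripts mark plasma cells, thermogenic transcripts mark brown or beige fat, and sarcomere transcripts mark skeletal muscle. Every array holds a mixture, so fewer cells of a type and less RNA per cell cannot be told apart. Levels are deposited log2 values throughout, differences are the mean of 110 to 112 minus the mean of 409 to 411 on that scale, and a row passed when its limma p-value, adjusted by Benjamini and Hochberg over 15437 rows, lay below 0.05. The nerve label was checked on Schwann cell myelin genes, whose list mean over 17 measured members lay between 9.38 and 10.87 on the db/db arrays, against a mean of all rows between 8.35 and 8.40. On db/+ 101, 103, 104 and 106, where neuronal transcripts were high, it lay between 10.94 and 11.52. This check therefore cannot tell sciatic nerve from other nerve tissue.

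The control rows of the array differed between the series before any gene was considered. The hybridisation controls are bacterial and phage transcripts that are added, already labelled, to the solution that goes onto the array, so they carry no RNA of the mouse. Their mean over 18 rows was 12.44, 12.43 and 12.40 on 110, 111 and 112, and 12.82, 12.98 and 12.90 on 409, 410 and 411. The series did not overlap, 15 of the 18 rows were higher on every array of 409 to 411, and 1 was higher on every array of 110 to 112. The rows also scattered more among 409 to 411, with a median SD of 0.22 against 0.039, and the SD was the larger one for 18 of 18 rows. The db/+ arrays divided in the same way, with 12.29 to 12.58 on 101 to 106 and 12.76 and 13.25 on 404 and 407.

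**Figure D1:**
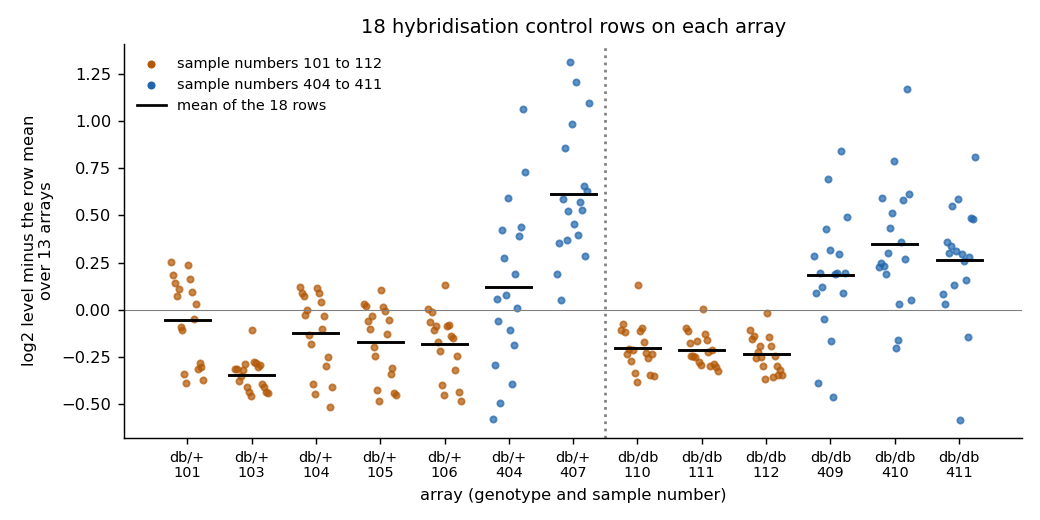
Level of each of the 18 hybridisation control rows (points, log2, relative to the mean of that row over 13 arrays) on each array, with the mean of the rows as a bar. The arrays numbered 404 to 411 sit higher and scatter more than those numbered 101 to 112, in db/+ and in db/db.

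Other controls gave a mixed picture. The 6 rows of poly-A controls, which are added to RNA before labelling when a laboratory uses them, lay at the bottom of the range with array means from 4.16 to 4.40, and 0 of the 6 separated the series. The gap from the 3' to the 5' row of actin, which grows when RNA is broken or copied short, was 0.675, 0.879 and 0.916 on 110, 111 and 112 and 0.485, 0.613 and 0.518 on 409, 410 and 411. It was higher on every array of 110 to 112, by 0.285 on average (exact permutation test, two-sided p = 0.1, the smallest that 3 against 3 arrays can give). The same measure of Gapdh overlapped between the series, with a difference of 0.16 (exact permutation test, two-sided p = 0.2). For pyruvate carboxylase the gap was 5.58, 4.72 and 5.24 on 110, 111 and 112 and 5.89, 6.14 and 6.32 on 409, 410 and 411, so there it was lower on every array of 110 to 112 (difference −0.94, not tested). Its 5' row was low on all 6 arrays, at 4.50 to 5.31 with a difference of −0.02, whereas its 3' row differed by −0.96. For the transferrin receptor the gap overlapped, with a difference of 0.27, and the 5' row was low as well, at 4.30 to 5.41. With so low a 5' row, these 2 gaps cannot separate the level of the gene from broken RNA. Of 3 rows for 18S ribosomal RNA, 2 were higher on every array of 110 to 112. The lowest value on an array was 2.66 to 2.89 in 110 to 112 and 1.75 to 2.02 in 409 to 411.

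Against this background, 371 of the 15437 rows passed the threshold (2.40%), 139 of them higher in 110 to 112 (0.900%) and 232 higher in 409 to 411 (1.50%). A further look without adjustment found 3940 rows with p below 0.05 (25.5%). The ranges of the series did not overlap in 5012 rows (32.5%), of which 2019 (13.1%) were higher in 110 to 112 and 2993 (19.4%) higher in 409 to 411. Of the rows that passed, 94 differed by 1 or more on the log2 scale, 37 and 57 in the respective directions. The calls sat close to the threshold, with 0.0333 as the smallest adjusted p among the named genes, and most did not outlast the loss of an array. Without 112, 200 rows passed, 104 of them among the 371, and without any 1 of 110, 111, 409, 410 or 411, 0 rows passed in limma's fit, with 2528 to 3731 rows at an unadjusted p below 0.05.

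The scale also mattered, since the arrays were already normalized to each other. The median difference over all rows was −0.04. When each array was shifted so that its hybridisation controls were level, that median moved to 0.44 and 7592 rows passed, 7462 higher in 110 to 112 and 130 higher in 409 to 411. The shift takes the control difference of −0.48 from the difference of every row alike. A move towards 110 to 112 under it is therefore fixed in advance for any gene or list. With the hybridisation control mean as a covariate 0 rows passed and 445 had an unadjusted p below 0.05, and with the actin measure as a covariate 0 passed and 3170 did. Both covariates separate the series without overlap. These fits therefore cannot divide a difference between the series and the control measure, and the 2 cannot be told apart. The poly-A control mean overlapped between the series. With it as a covariate 0 rows also passed, and 3418 had an unadjusted p below 0.05 in limma's fit. A count of 0 with a covariate thus does not by itself show that the covariate follows the series.

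**Figure D2:**
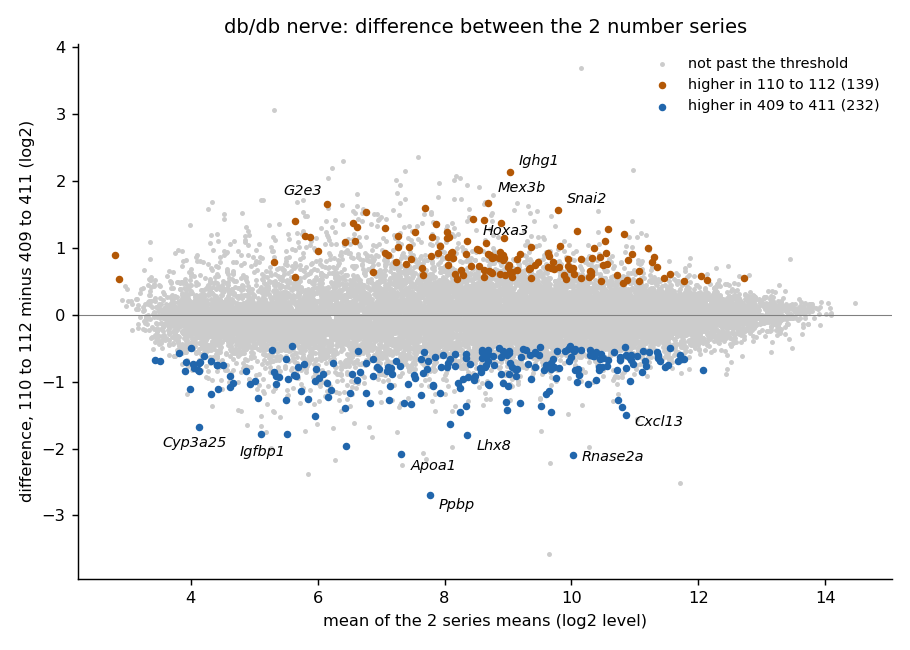
Difference between the db/db number series (vertical, log2, 110 to 112 minus 409 to 411) against the mean of the 2 series means (horizontal, log2 level) for 15437 rows. Coloured points are the 139 rows higher in 110 to 112 and the 232 rows higher in 409 to 411 that passed, and the labelled genes include Ighg1 at 2.13 and Ppbp at −2.69.

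The arrays of a series were not alike among themselves. Correlations across rows ranged from 0.973 to 0.983 within 110 to 112, from 0.978 to 0.988 within 409 to 411, and from 0.965 to 0.982 between the series. Single arrays stood out with whole groups of transcripts. Array 110 exceeded the other 5 db/db arrays by 2 or more in 47 rows, led by kidney genes, 411 in 31 rows, led by fast muscle genes, and 112 in 18 rows, led by slow muscle genes, against 5 rows on 111, 10 on 409 and 0 on 410. The first principal component, with 39.1% of the variance, placed 110 (0.63) and 111 (0.40) opposite 410 (−0.32) and 411 (−0.58), with 112 (−0.11) and 409 (−0.02) between them.

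Transcripts of mitosis were highest in db/db 110 and 111, and 112 lay close to the arrays of the other series. The mean over the 44 measured genes of this list was 9.02, 8.27 and 7.18 on 110, 111 and 112, and 7.09, 6.98 and 6.84 on 409, 410 and 411. For all 44 genes the level was highest on 110, and for all 44 it was higher on 111 than on 112. The difference was above 0 for 43 genes with a median of 1.18, against −0.04 for all rows. In 19 genes (43.2%) the series did not overlap, all 19 higher in 110 to 112, where 13.1% of all rows did so.

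Of the 44 genes 0 passed limma's adjusted threshold, where 0.900% of all rows passed in this direction. An unadjusted p below 0.05 was found for 24 of the 44, against 25.5% of all rows. The number that passed depended on single arrays. Without 112, 14 of the 44 passed and the median was 1.58, without 110 the median was 0.74 with 0 passing, and without both 110 and 111 it was 0.20. Under the shift by hybridisation controls 37 of the 44 passed, where 7592 of the 15437 rows did. On the db/+ arrays the list mean was lower throughout, 5.72 to 6.61, and there 404 and 407 (6.0 and 6.50) lay inside the range of 101 to 106.

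The regulatory sequence in front of these genes is shown for Top2a, Ccnb2 and Ect2, the 3 of the 5 members with the smallest p whose windows hold both motifs described here. The windows of the other 2, Plk1 and Spc25, hold the CCAAT box without the cell cycle homology region and are not shown. Each window holds the 250 bases before the RefSeq start site in GRCm38.p6, on the strand of the gene and from 5′ to 3′. Capitals mark the CCAAT box (CCAAT or, on the other strand, ATTGG), bound by the factor NF-Y, and the cell cycle homology region (TTTGAA or TTCGAA, or TTCAAA on the other strand), bound by the DREAM complex that holds late cell cycle genes silent. The marked letters do not overlap. Top2a lies on the minus strand at chr11:99024190-99024439, Ccnb2 on the minus strand at chr9:70421555-70421804 and Ect2 on the minus strand at chr3:27153879-27154128, with a second RefSeq start nearby.
Top2a: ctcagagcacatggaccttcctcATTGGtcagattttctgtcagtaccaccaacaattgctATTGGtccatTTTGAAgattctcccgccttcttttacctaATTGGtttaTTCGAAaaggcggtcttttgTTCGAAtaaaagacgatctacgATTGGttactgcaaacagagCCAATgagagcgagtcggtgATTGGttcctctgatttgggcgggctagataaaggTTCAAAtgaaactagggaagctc
Ccnb2: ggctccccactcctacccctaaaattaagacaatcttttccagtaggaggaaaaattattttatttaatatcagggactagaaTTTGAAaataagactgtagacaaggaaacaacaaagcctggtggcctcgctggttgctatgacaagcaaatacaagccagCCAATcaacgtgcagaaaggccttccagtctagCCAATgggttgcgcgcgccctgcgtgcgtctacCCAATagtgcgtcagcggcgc
Ect2: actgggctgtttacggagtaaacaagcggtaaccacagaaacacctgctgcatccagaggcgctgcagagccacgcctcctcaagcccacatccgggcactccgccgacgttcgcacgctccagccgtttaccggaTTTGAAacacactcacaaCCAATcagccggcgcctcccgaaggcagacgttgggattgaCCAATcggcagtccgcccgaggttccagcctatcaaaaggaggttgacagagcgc
The CCAAT box was found in such a window of 25 of the 34 mitosis genes that had one (73.5%), against 39.6% of 11816 measured genes. The cell cycle homology region was found in 11 (32.4%) against 15.1%, and both together in 10 (29.4%) against 5.57%. In the Ccnb2 window the CCAAT letters begin at −87, −54 and −21, counted from −1 as the base before the start. These counts describe letters only and were not tested.

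The 5 mitosis genes with the smallest p spanned kinases, the kinetochore and chromosome separation. Plk1, a kinase of mitotic entry and exit, was at 9.27, 8.67 and 8.45 on 110, 111 and 112 and at 7.76, 7.44 and 7.08 on 409, 410 and 411. All arrays of the lower numbers were above all of the higher ones, and the difference was 1.37 ± 0.26 (SE; adjusted p = 0.0568). Top2a, the topoisomerase that untangles chromosomes, was at 9.72, 9.06 and 7.91 against 7.46, 6.94 and 6.37. The difference of Top2a was 1.97 ± 0.50 (SE; adjusted p = 0.0842), and its 2 means, 8.90 ± 0.91 and 6.93 ± 0.54 (SD, n = 3 each), show how much of the spread lay inside 110 to 112. Ccnb2, a mitotic cyclin, was at 10.24, 9.27 and 7.97 against 7.01, 7.29 and 7.13. Spc25, part of the kinetochore, differed by 0.90 (adjusted p = 0.0789) and Ect2, an activator of cytokinesis, by 1.90 (adjusted p = 0.0997).

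DNA replication genes followed 110 and 111 as well, at a smaller size. The mean of 32 measured genes was 9.65, 9.24 and 8.65 on 110, 111 and 112 and 8.89, 8.68 and 8.52 on 409, 410 and 411, so that 112 lay below 409. In 31 of the 32 genes 110 had the highest level. The median difference was 0.46, and 0 genes passed, where 0.900% of all rows passed in this direction. Of the 32 genes, 6 had an unadjusted p below 0.05, against 25.5% of all rows. In 4 (12.5%) the series did not overlap, all higher in 110 to 112, a share near the 13.1% of all rows. Without both 110 and 111 the median was −0.04. Pola1, a subunit of the polymerase that starts each new strand, was at 9.09, 8.82 and 8.88 against 8.50, 8.37 and 8.38 (difference 0.51, adjusted p = 0.0637). Rrm2, which makes the building blocks of DNA, was at 12.28, 12.05 and 10.81 against 10.79, 10.33 and 10.37. The helicase gene Mcm4 (0.49), the transcription factor gene E2f1 (0.40) and Uhrf1 (1.48), which copies methylation marks, had adjusted p from 0.142 to 0.17.

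Genes of the G1 phase and the inhibitors of the cycle were divided. Of 19 measured genes 0 passed, against 0.900% and 1.50% of all rows in the respective directions. In limma's fit 10 had an unadjusted p below 0.05, against 25.5% of all rows. In 6 (31.6%) the series did not overlap with 110 to 112 higher, against 13.1% of all rows. In 5 (26.3%) they did not overlap with 409 to 411 higher, against 19.4%, and the median was 0.13. Cdkn2c, an inhibitor of the G1 kinases, was at 12.15, 12.14 and 12.15 on the lower numbers and at 11.32, 11.55 and 11.78 on the higher ones (difference 0.60, adjusted p = 0.0689). The G1 kinase gene Cdk2 was 0.81 higher in 110 to 112, and the inhibitor genes Cdkn1c and Cdkn1a were at −0.92 and −0.43, none of the 3 past the threshold and all chosen after their values were seen.

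**Figure D3:**
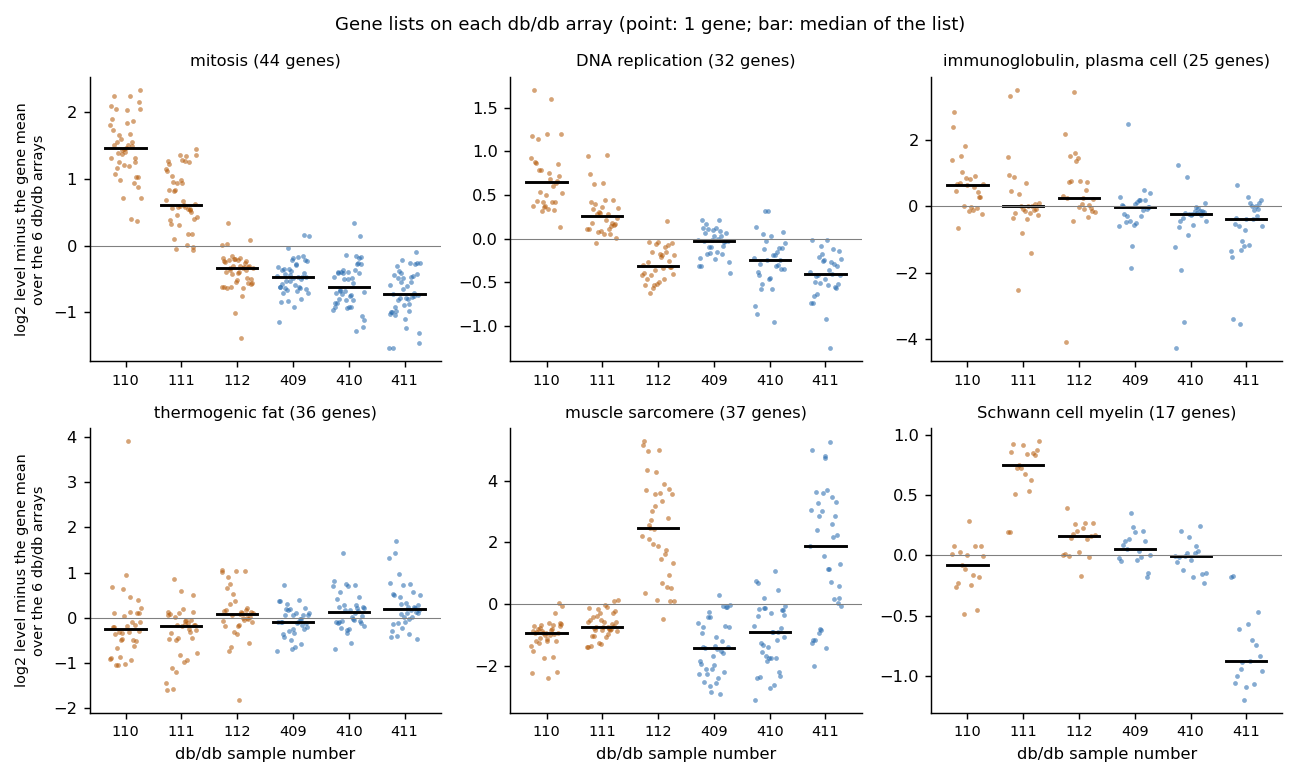
Levels of the genes of 6 lists (points, log2, relative to the mean of each gene over the 6 db/db arrays) with the list median as a bar, by array. Mitosis and DNA replication genes are high on 110 and 111, sarcomere genes on 112 and 411 and myelin genes on 111. Immunoglobulin and plasma cell genes and thermogenic genes scatter widely inside each array.

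In the list of immunoglobulin and plasma cell genes 1 passed, higher in 110 to 112, and it was the row that differed most among those that passed in this direction. Ighg1, the constant region of IgG1, was at 10.44, 10.50 and 9.34 on 110, 111 and 112 and at 8.43, 7.79 and 7.67 on 409, 410 and 411. The series did not overlap, and Ighg1 was 2.13 ± 0.37 (SE) higher in 110 to 112 (adjusted p = 0.0486). Its adjusted p was 0.0456 without 112 and lay between 0.0917 and 0.191 without any other single array. On the 7 db/+ arrays Ighg1 averaged 4.62 in 101 to 106 and 3.89 in 404 and 407, so that the db/db series were apart at a level that db/+ nerve did not reach.

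This list also holds plasma cell genes that are not immunoglobulins, such as Mzb1, Sdc1, Tnfrsf17, Prdm1 and Irf4. Its members Xbp1, Herpud1 and Creld2 count in the endoplasmic reticulum stress list as well. Of its 25 measured genes, Ighg1 passed and the other 24 did not, where 0.900% of all rows passed in this direction. The list mean was 9.92, 9.44 and 9.66 against 9.14, 8.67 and 8.54, the median difference was 0.69, and 6 genes (24.0%) did not overlap, all higher in 110 to 112, where 13.1% of all rows did so. With the hybridisation control mean as a covariate the median was −0.18. Jchain, which joins IgA and IgM into polymers, was at 12.79, 10.99 and 12.34 against 9.78, 10.11 and 9.78 (difference 2.15 ± 0.46 by SE, adjusted p = 0.0654). The kappa constant gene Igkc was at 14.14, 13.24 and 14.19 against 13.14, 13.08 and 12.86, and Ighg3 at 5.12, 5.14 and 4.91 against 4.66, 4.03 and 4.13.

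Other members varied from array to array by more than the series did. Ighg2b was at 12.53, 11.08 and 12.34 against 10.43, 5.86 and 8.63, a difference of 3.68 with an SE of 1.14 (adjusted p = 0.119). Ighg2c, named after its values were seen, was at 11.60, 12.08 and 4.64 against 8.77, 9.999 and 5.36, and so was high on 110, 111, 409 and 410 and low on 112 and 411. The IgA gene Igha, also named afterwards, was at 10.38, 11.91 and 12.56 against 10.56, 9.11 and 11.68. Single variable segments belonged to 1 array, such as Igkv4-57 at 12.95 on 110 and at 7.11 to 7.51 on the other 5, and Igkv12-46 at 11.39 on 111 and at 4.28 to 6.46 on the others. Constant region genes are close in sequence, so rows for them can share signal. Markers of B cells that do not secrete had a median of 0.07, and the best of them by p, Cd72, differed by 0.21 (adjusted p = 0.218). Of these 16 genes 0 passed, against 0.900% of all rows higher in 110 to 112 and 1.50% higher in 409 to 411.

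Thermogenic genes leaned towards 409 to 411 in a few members and not as a list. Of 36 measured genes 1 passed, higher in 409 to 411, where 1.50% of all rows passed. In 8 (22.2%) the series did not overlap with 409 to 411 higher, near the 19.4% of all rows, and in 2 (5.56%) with 110 to 112 higher, against 13.1%. The level was highest on 411 for 14 of the 36, and Cox8b also counts among the muscle metabolism genes below. The part of muscle transcripts in this list was not tested. The median difference was −0.13, and it turned to 0.36 under the shift by hybridisation controls, which moves every row alike, and to 0.20 with their mean as a covariate. Lhx8, a homeobox gene that marks brown fat, was at 7.49, 7.17 and 7.72 on 110, 111 and 112 and at 8.65, 9.80 and 9.34 on 409, 410 and 411. Lhx8 was 1.80 lower in 110 to 112 than in 409 to 411 (difference −1.80 ± 0.31 by SE; adjusted p = 0.0482), and its difference changed sign (1.22) with the hybridisation covariate.

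The next members by p missed the threshold. Elovl3, a fatty acid elongase of active brown fat, was at 4.59, 3.68 and 4.52 against 5.99, 5.83 and 6.96 (difference −1.99, adjusted p = 0.0552). Plin5, a coat protein of lipid droplets, was at 8.57, 8.57 and 9.50 against 9.89, 10.22 and 10.25 (difference −1.24, adjusted p = 0.0708). The potassium channel gene Kcnk3 stood at −0.83 (adjusted p = 0.0577), and Pank1, an enzyme of coenzyme A synthesis, stood the other way at 0.72 (adjusted p = 0.0686). Ucp1, the uncoupling protein that defines these cells and was named after its values were seen, was at 9.31, 8.77 and 11.28 against 9.47, 10.92 and 11.55. It overlapped between the series, with a difference of −0.86 and an SE of 0.80 (adjusted p = 0.534). White adipocyte genes were divided, with a median of −0.05 and list means of 12.71 to 12.87 on the 6 arrays. Of the 23 measured, 0 passed, against 0.900% of all rows higher in 110 to 112 and 1.50% higher in 409 to 411. In 7 (30.4%) the series did not overlap with 110 to 112 higher, against 13.1% of all rows. In 5 (21.7%) they did not overlap with 409 to 411 higher, against 19.4%.

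Muscle transcripts marked 1 array of each series and not the series. The mean of 37 measured sarcomere genes was 7.0, 7.35 and 10.48 on 110, 111 and 112 and 6.63, 7.02 and 9.67 on 409, 410 and 411, and in 25 of the 37 both 112 and 411 lay above the other 4 arrays. The same held for 20 of 25 genes of excitation and muscle metabolism, whose means were 6.86, 6.97 and 8.96 against 6.31, 6.62 and 9.84. In these lists and that of muscle lineage genes 1 gene passed in all, higher in 409 to 411, where 1.50% of all rows passed. The sarcomere median was 0.55 over 6 arrays, −0.65 without 112 and 1.48 without 411, so its sign turned with the array left out.

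The kind of muscle differed between the 2 arrays, as lists of fibre genes chosen after the values were seen show. All 9 slow fibre genes were highest on 112, with list means of 7.32, 7.48 and 11.05 against 7.45, 8.08 and 7.11. Of 13 fast fibre genes 11 were highest on 411, with means of 7.11, 7.56 and 10.42 against 6.18, 6.48 and 11.64. Myh7, the slow myosin, was at 5.67, 5.88 and 10.09 against 5.46, 6.01 and 5.24, and was thus raised on 112 alone. Myh4, the fastest myosin of limb muscle, was at 5.93, 6.69 and 7.16 against 4.88, 4.40 and 11.79, and was raised on 411 alone. Myh1, another fast myosin, was raised on both, at 10.91 on 112 and 8.82 on 411 against 2.67 to 5.17 on the others. Myoz2, of the slow fibre Z disc, was at 11.15 on 112 and between 4.75 and 5.89 elsewhere.

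A single sarcomere gene set the series apart. Mybph, which encodes a myosin binding protein, was at 8.70, 8.78 and 9.03 on 110, 111 and 112 and at 9.80, 10.60 and 10.22 on 409, 410 and 411. It was lower in 110 to 112 (difference −1.37 ± 0.22 by SE, adjusted p = 0.0451), and it did not share the high levels on 112 and 411 that 25 of the 37 genes showed. With the hybridisation covariate its difference was 0.67. Among the excitation genes Trdn, which anchors calcium release, was at 11.003, 11.18 and 12.29 against 9.94, 10.18 and 10.87 (difference 1.16, adjusted p = 0.147). The calcium store gene Casq2 (0.47) and the junction gene Jph2 (−0.43) stood at adjusted p of 0.171 and 0.168, and Mlip (0.54) and the kinase subunit gene Phkg1 (−1.02) at 0.288 and 0.449. Genes of muscle formation and the neuromuscular junction had means of 5.68, 5.69 and 6.15 against 5.46, 5.58 and 6.97, and 13 of the 20 were highest on 411. None of the 20 passed (0 calls, 0 at an unadjusted p below 0.05 in limma's fit, against 25.5% of all rows). The differences were −0.31 for Musk, 0.61 for Myog, −0.49 for Chrne and −0.17 for Chrng.

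Liver transcripts gave 12 calls, all of them higher in 409 to 411. This list was drawn up after liver genes had been seen among the top rows, so its count describes the finding and is no support for it. Of 36 measured hepatocyte genes 12 passed and all 12 were higher in 409 to 411, where 1.50% of all rows were. In 25 genes (69.4%) the series did not overlap with 409 to 411 higher, against 19.4% of all rows. The list mean was 6.07, 6.56 and 6.21 on 110, 111 and 112 and 7.19, 7.37 and 7.30 on 409, 410 and 411, and the median difference was −1.04.

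The levels were low for most of these genes. Apoa1, the main protein of high density lipoprotein, was at 6.06, 6.41 and 6.38 on 110, 111 and 112 and at 8.09, 8.61 and 8.38 on 409, 410 and 411. Its difference was −2.08 ± 0.17 (SE; adjusted p = 0.0333), and the 2 means were 6.28 ± 0.19 and 8.36 ± 0.26 (SD, n = 3 each). Igfbp1, a liver protein that binds insulin-like growth factors, was at 4.29, 4.11 and 4.26 against 6.33, 5.74 and 5.94 (difference −1.78, adjusted p = 0.0333). The cytochrome gene Cyp3a25 was at 3.23, 3.44 and 3.17 against 4.72, 5.38 and 4.80. Asgr1, the receptor by which liver clears glycoproteins, was at 5.09, 5.16 and 5.38 against 6.64, 7.02 and 6.50. In db/+ nerve Asgr1 went the other way, at 6.97, 7.50, 9.74 and 9.13 on 101, 103, 104 and 106. It was at 5.40, 5.29 and 6.41 on db/+ 105, 404 and 407, so its level here cannot be read as liver signal alone. The albumin gene Alb reached the highest level among those that were higher on every array of 409 to 411, at 7.76, 9.49 and 8.70 against 10.12, 10.83 and 10.24, and missed the threshold (difference −1.74, adjusted p = 0.0848). Rbp4 and Hp, which fat also makes, stood at −0.07 and 0.10, and Hnf4a, a defining factor of hepatocytes, was at 4.04 to 4.53 on all 6 arrays.

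The windows before Alb and Igfbp1 are shown because both hold a half-site of HNF1 (GTTAAT, or ATTAAC on the other strand), a factor of liver and kidney, in capitals. The motif was chosen after the values were seen. Alb lies on the plus strand at chr5:90460620-90460869 and Igfbp1 on the plus strand at chr11:7197537-7197786, in the same build.
Alb: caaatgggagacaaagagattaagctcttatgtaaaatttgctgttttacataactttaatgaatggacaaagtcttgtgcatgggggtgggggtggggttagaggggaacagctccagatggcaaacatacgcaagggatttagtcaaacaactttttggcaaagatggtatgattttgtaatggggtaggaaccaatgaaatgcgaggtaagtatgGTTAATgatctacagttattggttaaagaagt
Igfbp1: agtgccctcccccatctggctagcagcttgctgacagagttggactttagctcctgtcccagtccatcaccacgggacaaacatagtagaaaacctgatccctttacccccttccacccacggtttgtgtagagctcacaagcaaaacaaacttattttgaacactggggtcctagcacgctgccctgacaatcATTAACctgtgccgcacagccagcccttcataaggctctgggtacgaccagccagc
The letters occurred in the windows of 9 of the 32 hepatocyte genes that had one (28.1%), against 5.52% of 11816 measured genes, and the Apoa1 window held none.

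**Figure D4:**
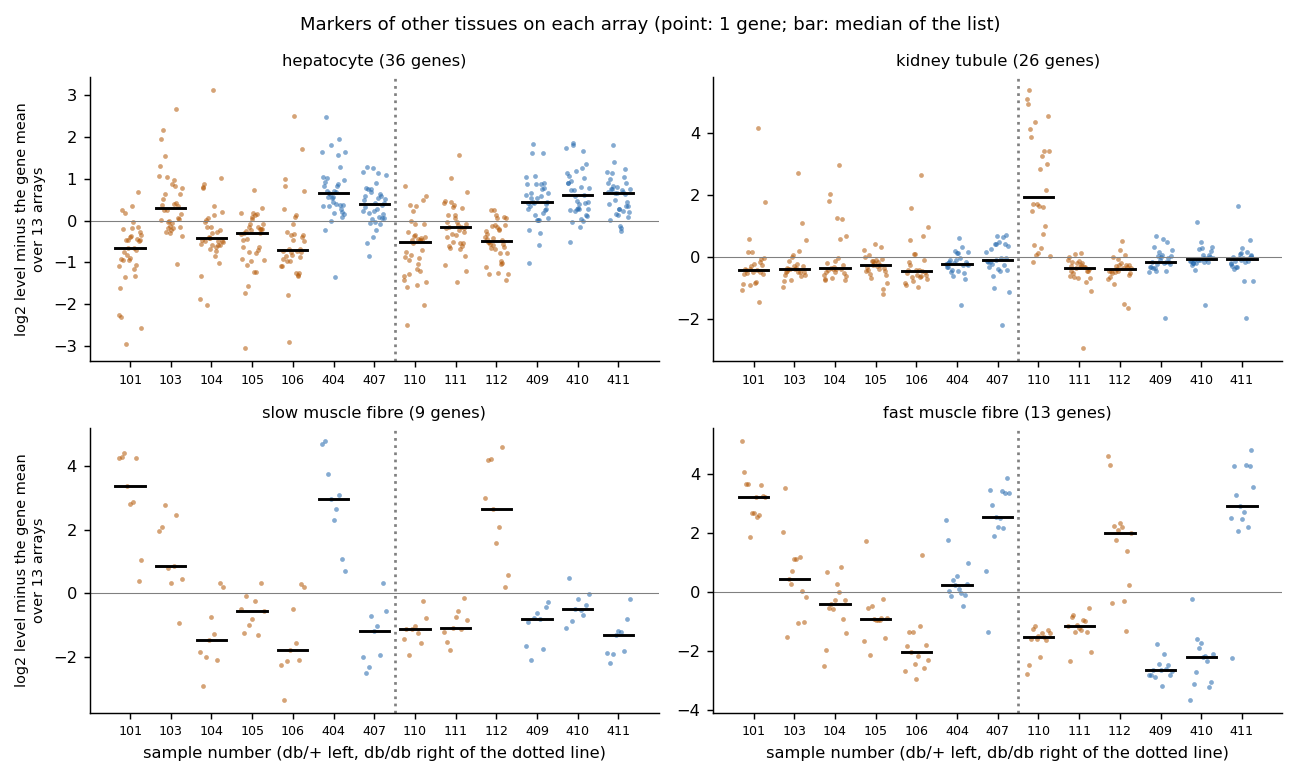
Levels of marker genes of 4 other tissues on all 13 arrays (points, log2, relative to the mean of each gene over 13 arrays; bar, median of the list), with db/+ on the left and db/db on the right. Hepatocyte genes are higher on 404 to 411 and db/+ 103, kidney tubule genes are high on db/db 110, slow fibre genes on db/+ 101, db/+ 404 and db/db 112, and fast fibre genes on db/+ 101, db/+ 407, db/db 112 and db/db 411. By list mean, db/+ 103 (9.68) lies between these and the rest for slow fibre genes, as do db/+ 103 (9.31) and 404 (9.26) for fast fibre genes.

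Kidney transcripts were found on db/db 110 and did not mark a series. Of 26 measured kidney tubule genes, a list also made after the values were seen, 21 were highest on 110 and 14 exceeded the other 5 arrays by 2 or more. The list mean was 7.80 on 110 and 4.97 to 5.40 on the other db/db arrays, and 0 genes passed between the series. Hao2, a peroxisomal oxidase of kidney, was at 9.20 on 110 and at 3.17 to 3.54 on the others, Umod, a main protein of urine, at 7.97 against 3.39 to 3.84, and Slc34a1, the phosphate transporter of the proximal tubule, at 8.68 against 3.94 to 4.30. Podocyte genes differed little, with means of 8.15 on 110 and 7.71 to 8.12 elsewhere. The same array had the highest mitosis levels, with a list mean of 9.02. On 111 the mitosis mean was 8.27 with the kidney mean at 4.97, the lowest of the 6. The part of the kidney transcripts in the mitosis levels was not tested.

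Among the other genes at the head of the 139 rows higher in 110 to 112, Mex3b, an RNA binding protein, was at 9.51, 9.73 and 9.33 on 110, 111 and 112 and at 7.80, 7.68 and 8.09 on 409, 410 and 411, which gave a difference of 1.67 ± 0.16 by SE (adjusted p = 0.0333). Snai2, a repressor of epithelial genes, was at 10.78, 10.73 and 10.20 against 9.14, 8.82 and 9.06 (difference 1.56, adjusted p = 0.0372). Hoxa3, a homeobox gene of the body axis, was at 9.15, 8.97 and 9.38 against 7.85, 7.65 and 7.70 (difference 1.44, adjusted p = 0.0333). Each of the 3 showed a gap between the series that was wider than the spread inside either.

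Others of this direction were the transcription factor gene Sp3, higher by 1.41, the ubiquitin ligase gene G2e3 by 1.65, the formin gene Diaph3 by 1.53, Rbm12b2 by 1.59, Lratd1 by 1.40, Zc3h12d by 1.35, and the zinc finger genes Zfp58 and Zfp866 by 1.36 each, with adjusted p from 0.0333 to 0.0482. Zinc finger genes were also counted by symbol. Of 291 measured genes whose symbol begins with Zfp, a set formed after the values were seen, 14 passed higher in 110 to 112 and 2 higher in 409 to 411, where 0.900% and 1.50% of all rows did. Their median was 0.20, and 94 (32.3%) did not overlap with 110 to 112 higher, against 13.1% of all rows. Pdia4, a folding enzyme of the endoplasmic reticulum, was at 8.60, 8.77 and 8.61 against 7.73, 7.07 and 7.47 (difference 1.24, adjusted p = 0.0391). It was the 1 of 18 genes of its stress list that passed, where 0.900% of all rows passed in this direction. In 5 of the 18 (27.8%) the series did not overlap with 110 to 112 higher, against 13.1% of all rows, and in 0 with 409 to 411 higher. Mycn, higher by 0.64 (adjusted p = 0.0372), was the 1 of 15 repair Schwann cell genes that passed, beside the same 0.900% of all rows.

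At the head of the 232 rows higher in 409 to 411 stood Ppbp, a chemokine stored in platelets, at 7.05, 6.37 and 5.86 on 110, 111 and 112 and at 9.66, 8.40 and 9.29 on 409, 410 and 411. Its difference was −2.69 ± 0.42 (SE; adjusted p = 0.0447). Of 9 platelet genes, listed after the values were seen, 2 passed, Ppbp and Gp1bb, where 1.50% of all rows passed in this direction. In 5 of the 9 (55.6%) the series did not overlap with 409 to 411 higher, against 19.4% of all rows. The difference was below 0 for 8 of the 9, with a median of −0.52. Pf4, another platelet chemokine, was at 12.66 to 13.17 on all 6 arrays. Rnase2a, a ribonuclease of eosinophils and macrophages, was at 8.67, 9.64 and 8.62 against 10.89, 10.98 and 11.35 (difference −2.10, adjusted p = 0.0391). Cxcl13, which attracts B cells, was at 9.72, 10.05 and 10.55 against 11.60, 11.54 and 11.67 (difference −1.50, adjusted p = 0.0389). It lay opposite to the immunoglobulin genes in its direction.

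Neutrophil genes lay mostly on the same side, 13 of 15 below 0 with a median of −0.54. Elane passed, at −0.74 (adjusted p = 0.0386), where 1.50% of all rows passed in this direction. In 6 genes (40%) the series did not overlap with 409 to 411 higher, against 19.4% of all rows. In the mast cell list 6 genes were above 0 and 4 below, with a median of 0.04, and its leading member by p, the histamine enzyme gene Hdc, stood at −1.17 (adjusted p = 0.0789). Alas2, the first enzyme of haem synthesis in red cells, was at 8.41, 8.15 and 6.997 against 9.27, 13.42 and 11.62, so that 410 and 411 carried most of its difference of −3.58 (adjusted p = 0.107). Entpd3, Ceacam10, Enpp5 and Spidr completed the 12 greatest calls of this direction, at −1.97, −1.78, −1.63 and −1.46. Ccn1, a matrix protein of the immediate early response, stood at −0.86 (adjusted p = 0.0487). It was the 1 of 22 genes of its list that passed, where 1.50% of all rows passed in this direction. In 8 of the 22 (36.4%) the series did not overlap with 409 to 411 higher, against 19.4% of all rows, and in 3 (13.6%) with 110 to 112 higher, against 13.1%.

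Myelin genes followed single arrays. All 17 myelin genes were highest on 111, and all 17 had a difference above 0 with a median of 0.54. Of these, 0 passed, where 0.900% of all rows did in this direction, and 3 did not overlap (17.6%, near the 13.1% of all rows). The list mean was 10.06, 10.87 and 10.29 on 110, 111 and 112 and 10.23, 10.15 and 9.38 on 409, 410 and 411, lowest on 411, the array with the most fast muscle transcripts. The best member by p, Dhh, a signal from Schwann cells to the sheath, was at 8.55, 9.35 and 8.75 against 8.33, 8.25 and 7.64 (difference 0.81, adjusted p = 0.14). Neuronal genes were at list means of 6.07, 6.53 and 6.30 against 6.78, 6.76 and 6.49, with 411 below 111. Of 18 genes 14 were below 0, the median was −0.49, and 7 (38.9%) did not overlap with 409 to 411 higher, against 19.4% of all rows. Of the 18, 2 passed, where 1.50% of all rows did in this direction. They were Scn9a, a sodium channel of pain fibres, at −0.82 and Pou4f1, a sensory neuron factor, at −0.84. Both lay near the bottom of the range on all 6 arrays, Scn9a at 3.62, 3.78 and 3.69 against 4.64, 4.58 and 4.34.

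Other lists gave few calls or none. Macrophage (24 genes), T and NK cell (21), mast cell (10), endothelial (15), pericyte and smooth muscle (15), perineurial (14), fibroblast (20), keratinocyte (12), interferon (17), clock (17), oxidative phosphorylation (19), ribosomal protein (6), heat shock and hypoxia (14) and cholesterol synthesis (11) genes had 0 members past the threshold. Of all rows, 0.900% passed higher in 110 to 112 and 1.50% higher in 409 to 411, so 0 calls in such lists say little. In 5 clock genes (29.4%) and 4 pericyte genes (26.7%) the series did not overlap with 409 to 411 higher, against 19.4% of all rows. In 3 cholesterol genes (27.3%) and 2 ribosomal genes (33.3%) 110 to 112 was higher without overlap, against 13.1%. The opposite direction held 1, 0, 1 and 1 genes of these lists. Leading members by p of the lists without a call were Lyve1 (−0.89), Cd28 (1.13), Pecam1 (0.50), Tagln (−0.35), Moxd1 (−0.74), Lum (0.58), Krtdap (−2.16), Ubd (0.41), Nfil3 (−1.34), Uqcrc1 (−0.50), Rps3 (0.25), Adm (−1.29) and Cyp51 (0.61), and Adig (−0.60) led the white adipocyte genes. Lepr itself overlapped between the series, with a difference of −0.23 (adjusted p = 0.511). The Y-linked gene Eif2s3y was at 11.91 to 12.06 on all 6 arrays, Uty differed by 0.57 (adjusted p = 0.151), and Usp9y, Sry and the X-linked Tsix stood at −0.04, −0.21 and −0.21.

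The same number series could be compared in db/+ nerve on arrays that the db/db comparison did not use. There 2362 rows passed between 101 to 106 and 404 and 407 (15.3%), 1030 higher in the lower series (6.67%) and 1332 higher in the higher one (8.63%). Of the 139 rows higher in db/db 110 to 112, 129 (92.8%) were also higher in db/+ 101 to 106, and 61 passed there in that direction with 0 passing in the other. Of the 232 rows higher in db/db 409 to 411, 194 (83.6%) were also higher in db/+ 404 and 407, and 104 passed there in that direction and 8 in the other. Over all rows the sign was the same in 62.4%.

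The db/+ arrays 101, 103, 104 and 106 carried neuronal transcripts at a list mean of 11.04 to 11.72, against 6.95 to 7.52 on db/+ 105, 404 and 407 and 6.07 to 6.78 in db/db. Without these 4 arrays, when 105 stood alone against 404 and 407, the sign was the same for 129 of 139 and 203 of 232 rows and for 66.4% of all rows, but 0 rows passed in db/+ and 2265 had an unadjusted p below 0.05 in limma's fit. Among the named genes Igfbp1 fell by 1.81 in db/+ 101 to 106 relative to 404 and 407 (adjusted p = 0.00414), and there Mex3b was higher by 1.42 (adjusted p = 0.0053) and Mycn by 1.39 (adjusted p = 0.0053). Scn9a went the other way, higher by 4.46 in db/+ 101 to 106 (adjusted p = 0.0399), from 9.68 to 10.38 on the 4 arrays with high neuronal transcripts and at 4.36 on 105, between 404 and 407 (4.53 and 4.31). Entpd3, Asgr1, Ceacam10, Rnase2a and Lhx8 also went the other way, by 2.56, 1.90, 0.86, 0.86 and 0.58, none past the threshold. Entpd3 was at 8.86 to 10.19 on the same 4 arrays and at 5.25 on 105, and Ceacam10 at 7.34 to 8.72 and at 4.17. The hepatocyte mean was 5.94 to 7.16 on db/+ 101 to 106 and 7.42 and 7.09 on 404 and 407, and 9 of 36 genes passed there, all higher in 404 and 407, where 8.63% of all rows passed in this direction.

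**Figure D5:**
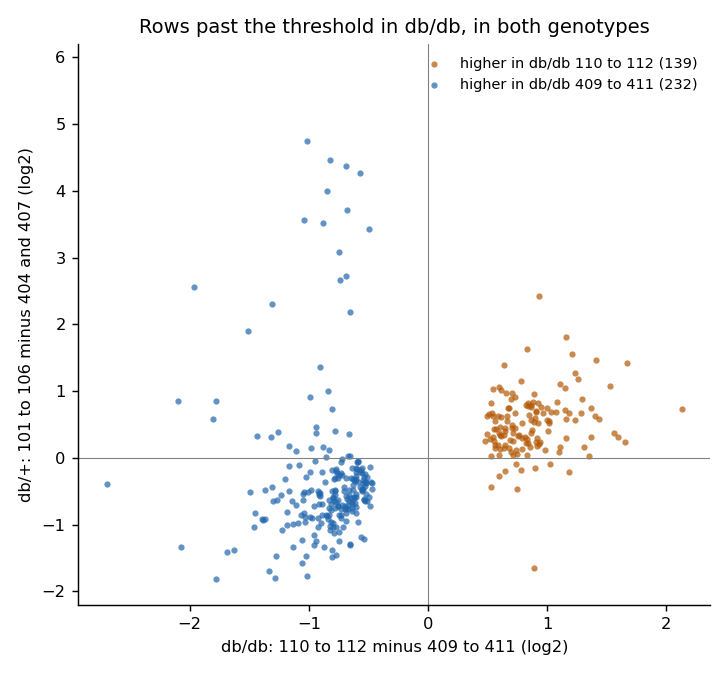
Difference between the number series in db/+ (vertical, log2, 101 to 106 minus 404 and 407) against that in db/db (horizontal, log2, 110 to 112 minus 409 to 411) for the 371 rows that passed in db/db. Of the 139 rows on the right 129 lie above 0, of the 232 on the left 194 lie below 0, and the points high on the left include the neuronal genes Scn9a and Pou4f1.

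The difference between the series was also compared between the genotypes. By limma's interaction term 0 of 15437 rows passed (0.00%), and 2360 had an unadjusted p below 0.05. This count rested on single db/+ arrays: 1311 rows passed without db/+ 105 and 72 without db/+ 404. Mitosis genes, with a median of 1.18 in db/db, had −0.19 in db/+. There 0 of 44 passed, where 6.67% of all rows passed higher in 101 to 106 and 8.63% higher in 404 and 407. The list of immunoglobulin and plasma cell genes had 0.69 in db/db and −0.53 in db/+. In db/+ 3 of the 25 passed, all higher in 404 and 407, where 8.63% of all rows passed in this direction. The hybridisation controls were higher in the higher series of both genotypes, as given above, and what else the numbers 101 to 112 and 404 to 411 share was not tested.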

How the data were processed

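Per the labels' protocols, nerve RNA was amplified with a biotin label for 1-colour arrays. The authors deposited log2 levels from RMA, per the submitters' processing notes, a method that corrects background, levels the arrays against each other and narrows differences of dim genes. There are no detection calls. For the RMA version, array type and genome build, the sources used here give nothing. The table held 15479 rows. Of these 42 controls were kept apart and 15437 were tested, of which 14801 had 1 gene symbol, 636 had none and 0 had several.

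The values were used as deposited. The 6 db/db arrays were fitted in R 4.3.3 with limma 3.58.1 (lmFit, then eBayes). Its two-sided p-values were adjusted over the 15437 rows by Benjamini-Hochberg. A fit over 13 arrays in 4 groups gave the db/+ comparison and the interaction. On simulated data for 15437 rows with 200 changed, the 6 array fit recovered 70% of those changed by 1 and 90% of those changed by 2, with 5 false calls among 165. The simulated rows varied independently of each other, whereas groups of transcripts moved together on single arrays here. These rates therefore check the fit and do not apply to the 371 rows that passed. Members and lists (32, with 733 entries, 608 measured) were chosen with earlier results of these data known, and 7 lists (hepatocyte, kidney tubule, podocyte, platelet, slow and fast fibre, Zfp symbols) after the values here were seen. Named genes (87) are the 12 greatest calls each way, the 5 smallest p in each of the 7 lists singled out (mitosis, replication, immunoglobulin, thermogenic and 3 of muscle), 1 from every other list, Lepr and sex-linked genes; all others were named after their values were seen. Promoters are from RefSeq, GRCm38.p6. Permutations used scipy 1.17.1, tables pandas 2.3.3 and numpy 2.4.6, and plots matplotlib 3.10.9, under Python 3.11.15.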

Additional observations from a re-analysis of the deposited data

Results flagged for a closer look

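In 20 groups of 4 to 10 arrays, control and list means were searched for an array far from its group, a search that chance passes in about 1 group in 20. It found 2, both among the 5 db/+ arrays 101 to 106. The mean of the poly-A control rows was 4.26 on db/+ 105 and 4.04 to 4.10 on the other 4 arrays. The mean of the muscle lineage genes was 7.27 on db/+ 101, the array on which slow and fast fibre genes were also high.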

How the results depend on the processing

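No paired analysis was possible because the groups compared share no replicate numbers. The 371 rows that passed in db/db became 874 with an intensity trend, 999 with array weights, 629 among rows with a mean of at least 6, 1083 with a mean of at least 8, and 94 with a difference of at least 1. With the actin, hybridisation or poly-A control measure as a covariate 0 passed (3170, 445 and 3418 at an unadjusted p below 0.05), and with the shift by hybridisation controls 7592 did. Robust moderation (350), renewed quantile normalization (286), median centring (405) and the fit over 13 arrays (509) stayed within 1.5 times. Leaving out 1 db/db array gave 0 to 200. Of alternatives chosen after seeing the data, 0 passed without db/db 110 and 111, and in the 4 group fit 88 passed without 110, 3 without 112 and 411, and 3 without 110, 112 and 411. The db/+ count of 2362 became 0 without db/+ 101, 103, 104 and 106 and ran from 286 (without 407) to 4485 (without 105) when 1 array was left out, with 849, 1344 and 1361 without 404, 104 and 106. The interaction count of 0 ran to 1311 (without db/+ 105), with 72, 4 and 1 without db/+ 404, db/db 112 and db/+ 407.

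List medians moved as follows, where immunoglobulin stands for the list of immunoglobulin and plasma cell genes. With the actin covariate they were 2.59 for mitosis, 1.16 for replication, 1.09 for immunoglobulin, −0.46 for thermogenic and −1.47 for sarcomere genes. With the hybridisation covariate they were 2.01 for mitosis, −0.18 for immunoglobulin and 0.20 for thermogenic genes. With the shift they were 0.95 for replication, 1.17 for immunoglobulin and 0.36 for thermogenic genes. Without 110 and 111 they were 0.20 for mitosis, −0.044 for replication and 2.91 for sarcomere genes, and without 110, 112 and 411 immunoglobulin genes had 0.13. The cause was not tested.

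Single genes changed sign mainly with the hybridisation covariate, 8 of them past the threshold without it: Lratd1 (−0.48), Zfp58 (−0.25), Lhx8 (1.22), Cyp3a25 (0.27), Spidr (0.40), Mybph (0.67), Ccn1 (0.53) and Pdia4 (−0.63). The others were Ighg3 (−0.84), Ighg2b (−9.50), Cd72 (−0.067), Kcnk3 (0.63), Tpm1 (−0.17), Lmod2 (−0.80), Musk (0.14), Chrne (0.76), Chrng (0.23), Mymk (1.09), Alas2 (9.21), Nfil3 (0.41), Usp9y (1.05) and Sry (0.18). With the shift, signs turned for Jph2 (0.049), Musk (0.17), Chrng (0.32), Mymk (0.33), Tagln (0.13), Lepr (0.25), Usp9y (0.44), Sry (0.27) and Tsix (0.27), and with the actin covariate for Myh7 (−1.48), Myoz2 (−2.49), Lmod2 (−1.14) and Eif2s3y (−0.036). Without 110 and 111 they turned for Musk (0.0017), Lepr (0.082) and Eif2s3y (−0.018), without 112 and 411 for Myoz2 (−0.15), and without 110, 112 and 411 for Chrne (0.0275). Usp9y was at 0.056 with renewed quantile normalization. With 1 db/db array left out, Eif2s3y ran from −0.0155 to 0.0545 and Usp9y from −0.124 to 0.052. Of the 30 named genes past the threshold, 30 kept it with an intensity trend, array weights or median centring, and 0 kept it without any 1 of 110, 111, 409, 410 or 411. Rows near the bottom of the range have no detection call, which limits what their differences show.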

Other observations

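Interferon-responsive genes marked db/db 409 within its series. Of 17 measured genes 14 were highest on 409, and the list mean was 11.32 there, against 9.38 to 10.29 on the other 5 db/db arrays. Cxcl10, a chemokine that draws T cells, was at 9.34, 8.56 and 8.72 on 110, 111 and 112 and at 12.67, 8.86 and 8.87 on 409, 410 and 411. Irf7, a factor that amplifies the response, was at 11.38 on 409 and at 8.14 to 9.39 on the others. Ubd stood apart from this pattern, with 12.49, 12.50 and 12.41 against 12.12, 12.03 and 12.03. In db/+ nerve the interferon mean was highest on 407, at 10.83, against 9.27 to 9.996 on the other 6 arrays.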
